A study of Mus musculus with 12 samples.

Results

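The protein genes of the small nucleolar ribonucleoproteins (snoRNPs) were measured in the lumbar spinal cord of mice that express a mutant mitofusin 2. The 8 genes were chosen by name and matched by symbol to their Ensembl identifiers. Nop58, Nop56 and Fbl encode core proteins of box C/D snoRNPs, Dkc1, Nhp2, Nop10 and Gar1 encode the core proteins of box H/ACA snoRNPs, and Nolc1 encodes a chaperone that binds both classes. Nop58 was picked because its level was higher in every MFN2 library than in every WT library, so its values against WT chose it and are given as a description, without a test. All 8 genes were among the 49548 genes counted in each library. All 8 also passed the filter on low counts (more than 1 CPM, a count scaled to library size, in at least 3 libraries), as did 15942 genes in all.

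RNA came from 8 MFN2 mice and 4 WT mice, all untreated and 30 days old, with 1 library for each mouse. MFN2 mice were hemizygous MitoCharc1 animals, strain B6;D2-Tg(Eno2-MFN2*R94Q), line L51Ugfm/J. They carry human MFN2 with the R94Q change under the rat Eno2 promoter, which drives it mainly in neurons, and they keep both of their own Mfn2 copies. The human transgene was not analysed here. WT mice are labelled C57BL/6, while the study's methods call them littermates, so that the transgene and the strain background cannot be told apart. The libraries are numbered 41 to 43 (MFN2), 44 to 47 (WT) and 72 to 76 (MFN2). MFN2 mice 72 to 76 therefore differ from WT in genotype and in the run of library numbers, and these cannot be told apart either. Total counts ranged from 19359454 to 26738930 in MFN2 and from 19453238 to 23564568 in WT libraries. The p-values weigh a difference between groups against the spread between mice within a group. Where all 8 MFN2 mice form 1 group, that spread also holds the difference between the runs of library numbers.

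Library 43 stood apart from the other 11 in its tissue markers. Its summed level of 8 forebrain neuron genes was 2809 CPM, against 26.5 to 57.4 CPM in the other libraries, and the most abundant of them, Slc17a7, a vesicular glutamate transporter, reached 1032 CPM. Its summed level of 8 caudal Hox genes, which mark the trunk levels of the spinal cord, was 42.7 CPM, against 236 to 301 CPM elsewhere. Library 73 was set aside together with library 43 in 1 alternative, on a list of markers of another cell type that is not reported here. For the members and the pathway lists, calls that changed without these libraries are given below. In MFN2 mice 72 to 76, glial markers were lower than in WT. The summed level of 5 astrocyte genes was 4580 ± 436 CPM (SD, n = 5) against 6146 ± 375 CPM (SD, n = 4), and that of 4 microglia genes was 82.4 ± 6.4 against 108 ± 13 CPM. In bulk tissue, fewer cells of a type and less RNA per cell cannot be told apart.

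As background, snoRNPs modify ribosomal RNA in the nucleolus. Box C/D particles methylate the ribose of chosen nucleotides, with fibrillarin (Fbl) as the methyltransferase and a NOP58 and NOP56 pair that holds the guide RNA together with SNU13. Box H/ACA particles turn uridines into pseudouridine, with dyskerin (Dkc1) as the enzyme and NHP2, NOP10 and GAR1 as its partners, and the same proteins also sit in telomerase. The U3 particle, a box C/D snoRNP, is needed to cut the precursor of small-subunit ribosomal RNA. Many guide RNAs are cut out of introns, including introns of genes that encode the snoRNP proteins themselves.

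The members illustrate this arrangement. In the GENCODE M21 annotation of GRCm38, 4 snoRNA genes lie within Nop58, 5 within Nop56 and 1 within Dkc1. The Nop58 snoRNAs are shown because Nop58 is the gene around which the members were gathered, and Snord110 of Nop56 is shown as an example from its partner, having the most counts of all snoRNA genes within members. Gm23187 and Gm23650 within Nop56 also hold both box C/D motifs and are not shown. Capitals mark the TGATG near the 5′ end (the core of box C) and the CTGA near the 3′ end (box D).
Snord70: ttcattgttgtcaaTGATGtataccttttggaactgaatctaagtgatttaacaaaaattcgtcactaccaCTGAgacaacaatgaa
Gm26293: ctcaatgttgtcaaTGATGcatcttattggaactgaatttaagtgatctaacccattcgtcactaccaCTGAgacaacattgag
Gm26287: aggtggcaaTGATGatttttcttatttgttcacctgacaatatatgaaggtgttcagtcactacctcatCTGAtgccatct
Snord11: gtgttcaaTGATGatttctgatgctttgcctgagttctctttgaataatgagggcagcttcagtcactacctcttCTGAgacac
Snord110: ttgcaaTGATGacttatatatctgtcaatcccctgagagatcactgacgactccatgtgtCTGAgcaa
Snord70 lies at chr1:59691934-59692020, Gm26293 at chr1:59692509-59692592, Gm26287 at chr1:59704258-59704338 and Snord11 at chr1:59704790-59704873, and Snord110 lies at chr2:130275506-130275573, all on the plus strand. These libraries hardly held the snoRNAs themselves. Over all 12 libraries the counts summed to 15 for Snord70, 0 for Gm26293, 2 for Gm26287, 30 for Snord11 and 71 for Snord110, so their levels could not be compared between groups. Of the 10 snoRNA genes within members, the 5 whose bases also belong to an annotated exon of the host had 0 counts in total, and the 5 that share no exon base had between 2 and 71. How reads on shared bases were assigned is not given in the sources used here, and its part in the host genes' counts was not tested.

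Levels of different genes were compared per length, as RPKM (CPM divided by the length of the exons in kilobases). With the length of all annotated exons of a gene, the mean over the 12 libraries was 19.0 RPKM for Nop56, 15.5 for Nolc1, 10.97 for Nhp2, 9.25 for Nop10, 5.48 for Dkc1, 3.62 for Nop58, 3.02 for Gar1 and 2.68 for Fbl. Of the neighbours in this order, the ranges did not overlap between Nop10 and Dkc1 or between Dkc1 and Nop58, and they overlapped in the other 5 pairs. The place of Nop58 depended on the length used, since its 15 annotated transcripts cover 10758 bases while its principal transcript has 1713. Per length of the principal transcript, Nop58 stood second at 22.7 RPKM, below Nop56 at 41.4 RPKM in all 12 libraries and above Nolc1 at 17.0 RPKM in all 12. Fbl then stood at 9.41 RPKM, close to Nop10 at 9.25 RPKM, and was the higher of that pair in 7 of 12 libraries. Some close neighbours changed places between the groups. Over all exons, Gar1 at 3.09 and Nop58 at 3.06 RPKM were nearly level in WT, against 2.98 and 3.90 RPKM in MFN2. Nop58 was chosen for lying above WT in every MFN2 library, so its change of place is partly fixed by that choice. Over the principal transcript Fbl stood at 10.5 and Nop10 at 9.58 RPKM in WT, against 8.84 and 9.09 RPKM in MFN2. Fbl was the lower of that pair in MFN2 mice 72 to 76 (7.89 against 9.09 RPKM). In MFN2 mice 41 to 43 it was the higher, as in WT (10.4 against 9.09 RPKM).

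Nop58 (ENSMUSG00000026020, chr1:59684971-59719044, plus strand) encodes the box C/D core protein for which the genes were assembled. Its level was 33.6, 33.3, 33.5 and 31.3 CPM in WT mice 44 to 47. It was 35.0, 43.9 and 42.7 CPM in MFN2 mice 41 to 43. It was 42.8, 42.99, 45.7, 41.8 and 40.3 CPM in MFN2 mice 72 to 76. All 8 MFN2 values thus lay above all 4 WT values, which is how the gene was chosen, and the mean was 41.9 ± 3.2 CPM (SD, n = 8) in MFN2 and 32.9 ± 1.1 CPM (SD, n = 4) in WT. The margin was narrow at 1 mouse: MFN2 mouse 41 exceeded the highest WT mouse, 44, by a factor of 1.04, and by 1.02 when libraries were scaled by their total alone. Of the 15942 genes tested, 156 (0.979%) lay above every WT library in every MFN2 library and 170 (1.07%) lay below. The fitted log2 fold change against WT was 0.35 over all 8 MFN2 mice, 0.32 in MFN2 mice 41 to 43 and 0.38 in MFN2 mice 72 to 76, comparisons that share the WT mice. Without library 43, the value in mice 41 and 42 was 0.27.

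The contrast between the runs of library numbers within MFN2 mice rests on the same 8 MFN2 values that chose Nop58. Asking all of them to lie above WT favours a gene that is high in both runs. For Nop58 this contrast is therefore also a description, without a test. MFN2 mice 72 to 76 differed from MFN2 mice 41 to 43 by a log2 fold change of 0.05. In that contrast 342 of 15633 genes (2.19%) were past an FDR of 0.05 in edgeR. Of these, 157 were higher and 185 lower in mice 72 to 76, and none of the other members was among them. Without library 43 the count of genes rose to 2375, and Nop56 was then past the threshold (log2 fold change 0.40, adjusted p = 0.0126). Without libraries 43 and 73, Nop56 (0.40, adjusted p = 0.0255) and Nolc1 (0.24, adjusted p = 0.0472) were past it.

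**Figure D1:**
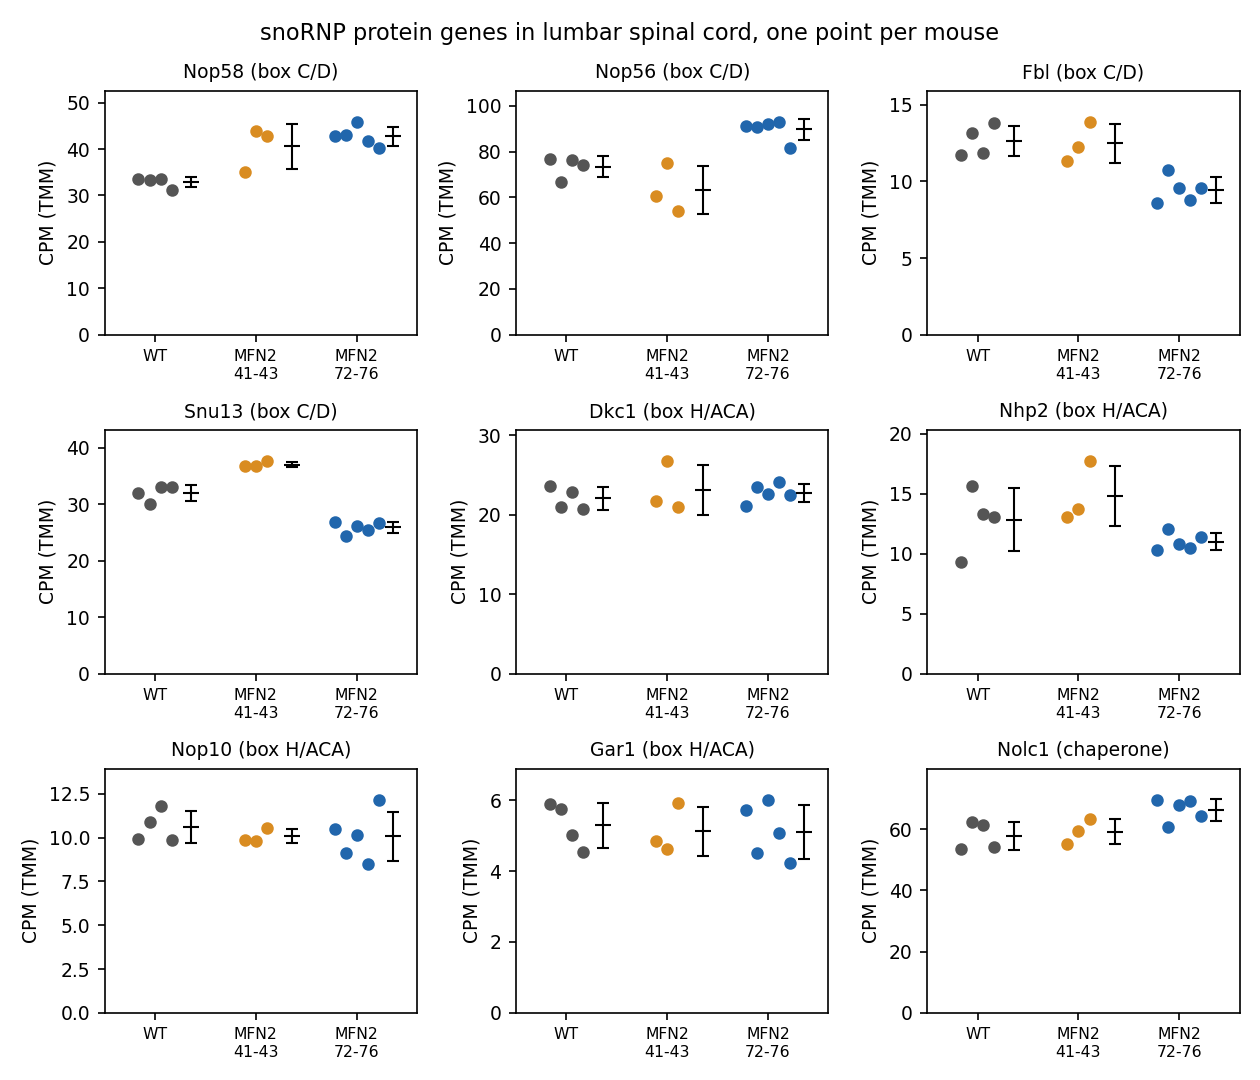
Levels (CPM after TMM scaling, linear axes from 0) of the 8 members and Snu13 in lumbar spinal cord, with 1 point per mouse in library order (WT n = 4, MFN2 41-43 n = 3, MFN2 72-76 n = 5) and the mean ± SD as a black bar. Nop58 lies above every WT value in all 8 MFN2 mice, while Nop56, Fbl and Snu13 are set apart from WT in MFN2 mice 72 to 76, Nop56 upwards and the others downwards.

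Across all 8 MFN2 mice, none of the other 7 members passed the test against WT. By the quasi-likelihood test of edgeR, with p-values adjusted by the Benjamini-Hochberg method, 0 of 15942 genes (0%) had an FDR of 0.05 or less, although 2386 had an unadjusted p under 0.05 and DESeq2 called 200. The largest of the 7 differences was that of Fbl, at a log2 fold change of -0.25 (SE 0.13, adjusted p = 0.354). Nolc1 differed by 0.14 (adjusted p = 0.387) and Nop56 by 0.12 (adjusted p = 0.681). Dkc1, Nhp2, Nop10 and Gar1 lay between -0.08 and 0.05.

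Within the run of numbers that holds both genotypes, MFN2 mice 41 to 43 against WT, 0 of the 7 members passed either, and 1 of 15200 genes did (0.00658%), with 1083 at an unadjusted p under 0.05. That gene, named after its values were seen, was the ribosomal protein pseudogene Rpsa-ps10, at 37.3 to 78.4 CPM in MFN2 mice 41 to 43 and 1.35 to 2.26 CPM in WT. Its level in MFN2 mice 72 to 76 was 56.9, 32.7, 30.2, 38.5 and 3.42 CPM, so that mouse 76 was close to WT. The members' log2 fold changes in this contrast ran from -0.20 for Nop56 (SE 0.12, adjusted p = 0.623) to 0.23 for Nhp2 (SE 0.19, adjusted p = 0.686), and Fbl was at 0.00 (SE 0.12). With a library left out, Nop56 ran from -0.34 to -0.11 and Nhp2 from 0.07 to 0.33, and neither was called.

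Against WT, MFN2 mice 72 to 76 showed changes in 3 of the 7 members: Nop56 and Nolc1 rose and Fbl fell. In this contrast 3746 of 15743 genes (23.8%) were past the threshold, 1746 higher and 2000 lower, and a count of 3 among 7 genes is too small to set the members apart from that background.

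Nop56 (ENSMUSG00000027405, chr2:130274430-130279313, plus strand) encodes the partner of NOP58 in the box C/D particle. Its level was 76.7, 66.6, 76.3 and 74.3 CPM in WT mice. It was 60.6, 74.9 and 54.1 CPM in MFN2 mice 41 to 43, with the lowest value in library 43. It was 91.4, 90.7, 92.2, 92.8 and 81.8 CPM in MFN2 mice 72 to 76. All 5 of the latter lay above every WT mouse, which held for 1504 genes (9.43%), while mice 41 and 43 lay below every WT mouse. The log2 fold change of MFN2 mice 72 to 76 against WT was 0.29 (SE 0.057, edgeR adjusted p = 0.00431). Leaving out each library in turn kept it past the threshold, with adjusted p from 0.00177 to 0.0155, while 1 fit of all 12 libraries in 3 groups gave an adjusted p of 0.0660. Against MFN2 mice 41 to 43 the log2 fold change was 0.49 (SE 0.10, adjusted p = 0.0516), just short of the threshold.

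Fbl (ENSMUSG00000046865, chr7:28169710-28179269, plus strand) encodes fibrillarin, the methyltransferase of the same particle. Its level was 11.7, 13.1, 11.8 and 13.8 CPM in WT mice. It was 11.3, 12.3 and 13.8 CPM in MFN2 mice 41 to 43. It was 8.61, 10.7, 9.57, 8.79 and 9.53 CPM in MFN2 mice 72 to 76. The last 5 lay below every WT mouse, as did 1629 genes (10.2%), whereas MFN2 mice 41 to 43 lay within or close to the WT range. The log2 fold change of mice 72 to 76 against WT was -0.42 (SE 0.091, edgeR adjusted p = 0.00648), and leaving out each library in turn gave adjusted p from 0.00541 to 0.0240. Against MFN2 mice 41 to 43 it was -0.43 (SE 0.11, adjusted p = 0.0827). A stretch of 690 bases of Fbl exons matches Tulp4, a gene of the tubby-like protein family, at 99.6% identity, so that reads from this stretch are of uncertain origin. Tulp4 took far more reads, at 659 ± 57 CPM (SD, n = 4) in WT and 489 ± 38 CPM (SD, n = 5) in MFN2 mice 72 to 76, and it also fell (log2 fold change -0.43, adjusted p = 0.00145). The part of shared reads in the values of Fbl was not tested.

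Snu13, which encodes the protein that first binds the guide RNA of box C/D particles, is not one of the 8 genes but completes that core. Its level was 32.0, 30.1, 33.0 and 33.1 CPM in WT mice. It was 36.8, 36.7 and 37.6 CPM in MFN2 mice 41 to 43, all above WT. It was 26.9, 24.4, 26.2, 25.5 and 26.7 CPM in MFN2 mice 72 to 76, all below WT. The groups did not overlap, and the MFN2 mice of the 2 runs lay on opposite sides of WT. For 1629 genes (10.2%), all of mice 72 to 76 lay below every WT mouse. The share of genes that also had mice 41 to 43 above WT was not counted. The log2 fold change against WT was 0.22 in mice 41 to 43 (SE 0.076, adjusted p = 0.622) and -0.31 in mice 72 to 76 (SE 0.058, adjusted p = 0.00315). The difference between the runs of MFN2 mice was itself past the threshold, at -0.54 (SE 0.066, edgeR adjusted p = 0.0112). Fbll1, a paralog of Fbl, was at 11.02 ± 1.61 CPM (SD, n = 4) in WT and 12.9 ± 2.9 CPM (SD, n = 8) in MFN2, with adjusted p of at least 0.288 in all 4 contrasts.

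**Figure D2:**
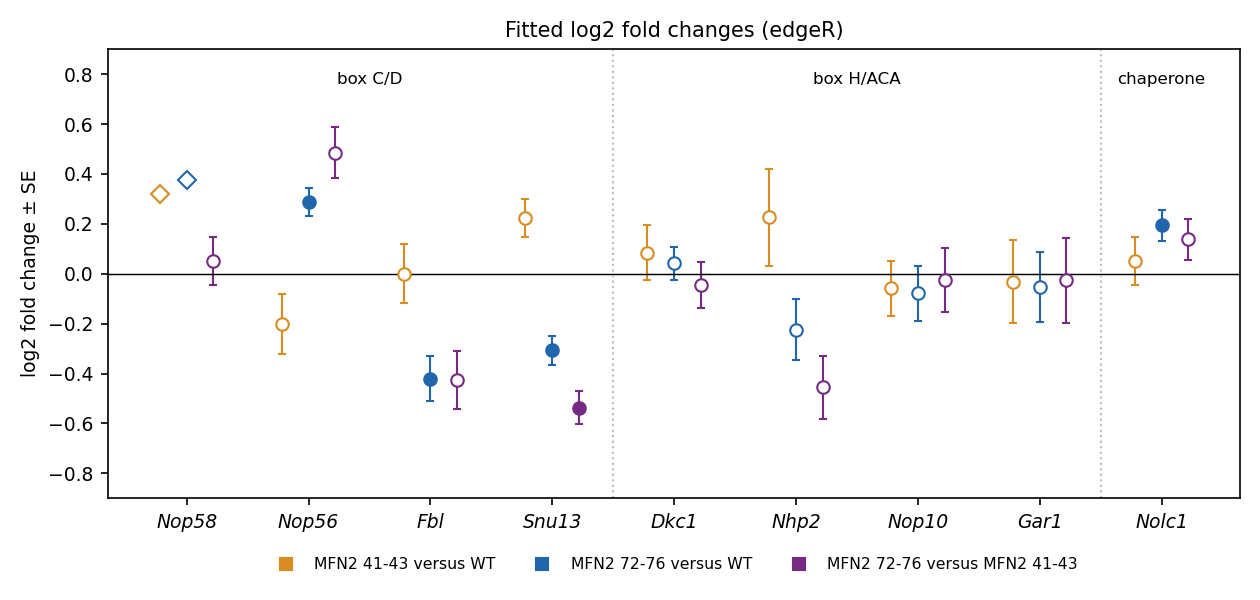
Fitted log2 fold changes with their SE for the 8 members and Snu13 in 3 contrasts, where filled circles are past an FDR of 0.05 in edgeR, open circles are not, and the diamonds of Nop58 against WT are descriptions without error. The value of Nop58 between the runs rests on the MFN2 values that chose it and is also a description. Nop56 and Nolc1 are past the threshold upwards, and Fbl and Snu13 downwards, in MFN2 mice 72 to 76 against WT, and Snu13 alone of the genes drawn is past it between the runs of MFN2 mice.

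None of the 4 box H/ACA genes passed the edgeR test in any of the 4 contrasts. Dkc1 (ENSMUSG00000031403, chrX:75095854-75109777, plus strand) was at 22.04 ± 1.43 CPM (SD, n = 4) in WT, 23.1 ± 3.1 CPM (SD, n = 3) in MFN2 mice 41 to 43 and 22.7 ± 1.2 CPM (SD, n = 5) in MFN2 mice 72 to 76. The 3 groups overlapped, and the highest value, 26.7 CPM, belonged to MFN2 mouse 42. Nop10 (ENSMUSG00000027133, chr2:112261926-112263269, plus strand), the smallest of the core proteins, was at 10.6 ± 0.9, 10.1 ± 0.4 and 10.1 ± 1.4 CPM in the same order. Gar1 (ENSMUSG00000028010, chr3:129824912-129831396, minus strand), which loads last onto the particle, was at 5.30 ± 0.64, 5.13 ± 0.69 and 5.10 ± 0.75 CPM. For these 3 genes the log2 fold change of MFN2 mice 72 to 76 against WT was 0.04 (SE 0.066), -0.08 (SE 0.11) and -0.05 (SE 0.14), with edgeR adjusted p of 0.683, 0.639 and 0.820.

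Nhp2 (ENSMUSG00000001056, chr11:51619735-51623714, plus strand), which encodes an RNA-binding protein related to SNU13, varied most among the H/ACA genes. Its level was 9.34, 15.6, 13.3 and 13.0 CPM in WT mice. It was 13.1, 13.7 and 17.7 CPM in MFN2 mice 41 to 43 and 10.3, 12.04, 10.8, 10.5 and 11.4 CPM in MFN2 mice 72 to 76. WT mouse 44 was the lowest and MFN2 mouse 43 the highest of all 12, and mice 72 to 76 lay between WT mouse 44 and the other 3 WT mice. The log2 fold change of mice 72 to 76 was -0.22 against WT (SE 0.12, adjusted p = 0.207) and -0.46 against MFN2 mice 41 to 43 (SE 0.13, edgeR adjusted p = 0.0872). Without WT library 44, the first became -0.35 with an adjusted p of 0.0139.

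Nolc1 (ENSMUSG00000015176, chr19:46075863-46085530, plus strand) encodes the nucleolar and coiled-body chaperone that binds both kinds of snoRNP. Its level was 53.5, 62.3, 61.4 and 54.4 CPM in WT mice and 55.2, 59.3 and 63.3 CPM in MFN2 mice 41 to 43. It was 69.5, 60.8, 67.8, 69.1 and 64.2 CPM in MFN2 mice 72 to 76, of which mouse 73 lay within the WT range and the other 4 above it. The log2 fold change of mice 72 to 76 against WT was 0.19 (SE 0.062, edgeR adjusted p = 0.0388). The call was lost when WT library 44 or 47 or MFN2 library 72, 74 or 75 was left out, with adjusted p from 0.0758 to 0.0997, and in the fit of 3 groups (adjusted p = 0.104).

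Box C/D and box H/ACA proteins were compared within each mouse by the mean log2 RPKM of Nop58, Nop56 and Fbl minus that of Dkc1, Nhp2, Nop10 and Gar1. This difference of levels does not depend on how libraries are scaled, but its sign depends on the gene lengths. With all annotated exons it was near or below 0, and with the principal transcripts it was between 1.22 and 1.60 in all 12 mice, while the differences between groups stayed the same. The values that follow use all exons. It was -0.17, -0.36, -0.29 and -0.12 in WT mice, -0.30, -0.13 and -0.36 in MFN2 mice 41 to 43, and -0.12, 0.02, -0.08, -0.06 and -0.16 in MFN2 mice 72 to 76. The box C/D side was thus relatively highest in mice 72 to 76, but the groups overlapped. The means were -0.24 ± 0.11 (SD, n = 4), -0.26 ± 0.12 (SD, n = 3) and -0.08 ± 0.07 (SD, n = 5), and no test was made because Nop58 was chosen for its level. Without Nop58 the means were 0.18 ± 0.13, 0.02 ± 0.13 and 0.19 ± 0.08 in the same order, so that mice 72 to 76 were then level with WT. With Snu13 added they were 0.01 ± 0.12, 0.04 ± 0.10 and 0.07 ± 0.04.

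The box C/D genes did not move as 1 unit. The log2 ratio of Nop56 to Fbl counts, in which the lengths of the genes cancel between groups, was 2.54 ± 0.18 (SD, n = 4) in WT, 2.33 ± 0.33 (SD, n = 3) in MFN2 mice 41 to 43 and 3.25 ± 0.16 (SD, n = 5) in MFN2 mice 72 to 76. The lowest value in mice 72 to 76, 3.08, exceeded the highest in any other mouse, 2.71. This separation follows from the levels given above and is not a further result. In mice 72 to 76, Nop56 lay above and Fbl below every other mouse. The log2 ratio of Nop58 to Nop56, the pair that meets in the particle, was -1.16 ± 0.11 in WT, -0.63 ± 0.25 in MFN2 mice 41 to 43 and -1.07 ± 0.06 in MFN2 mice 72 to 76. The highest ratio, -0.34, was that of library 43. Since Nop58 was chosen for its level above WT, its ratio against WT is partly fixed by that choice and is a description.

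**Figure D3:**
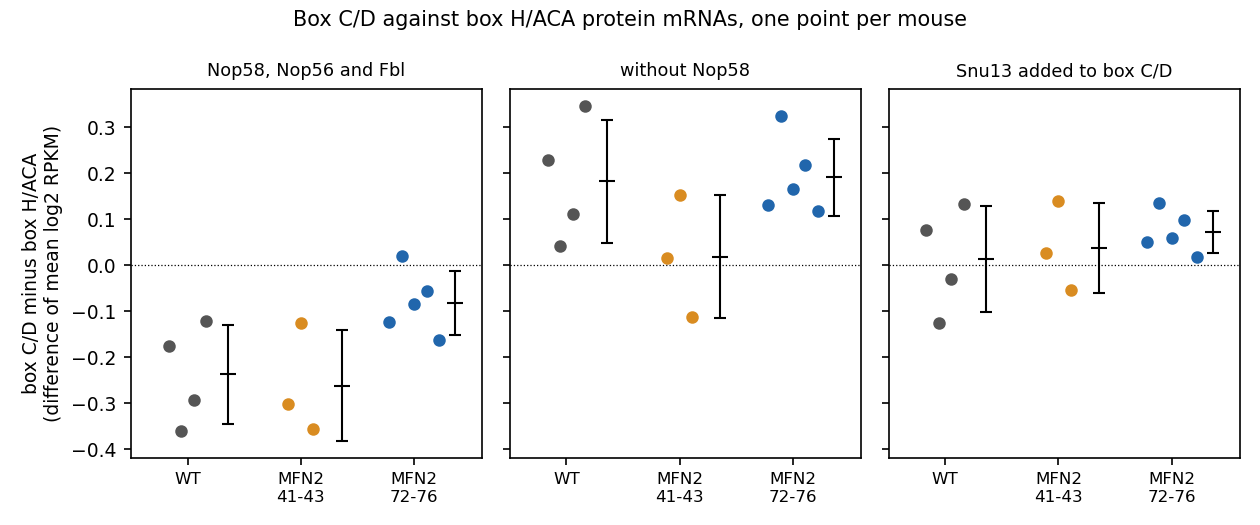
Mean log2 RPKM of box C/D protein genes minus that of the box H/ACA protein genes (Dkc1, Nhp2, Nop10, Gar1), with 1 point per mouse and the mean ± SD as a black bar (WT n = 4, MFN2 41-43 n = 3, MFN2 72-76 n = 5). Box C/D is Nop58, Nop56 and Fbl (left), without Nop58 (middle) or with Snu13 added (right), and Nop58, in the left and right panels, was chosen for lying above WT. In all 3 panels MFN2 mice 72 to 76 overlap the WT mice.

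The genes around the members were read from lists of the pathway that were written with earlier results of these data known. Among 31 genes of the U3 particle and the small-subunit processome, the complex that folds and cuts the precursor of small-subunit RNA, 9 rose and 2 fell in MFN2 mice 72 to 76 against WT. Over all genes tested in that contrast, 11.1% rose and 12.7% fell, and nothing particular to this or the following lists is read from their counts. Without library 73 the processome counts were 10 and 2. The largest rises were those of Nol10 (32.7 ± 1.2 CPM, n = 5, against 26.0 ± 1.1 CPM, n = 4, log2 fold change 0.33, edgeR adjusted p = 0.00215), Nop14 (0.28, adjusted p = 0.00524) and Utp11 (0.26, adjusted p = 0.0180). The falls were those of Imp4 (14.7 ± 1.0 against 19.4 ± 0.7 CPM, log2 fold change -0.40, adjusted p = 0.00201) and Imp3 (-0.31, adjusted p = 0.0196), which encode partners of MPHOSPH10 on the U3 particle. Mphosph10 itself rose (0.24, adjusted p = 0.0265). The median log2 fold change of the list was 0.09, against 0.00 over all genes tested.

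Of 25 genes for large-subunit assembly, 7 rose and 0 fell in the same contrast (5 and 0 without library 73), with a median of 0.09, beside 11.1% of all genes that rose and 12.7% that fell. Rrp1b had the largest rise, from 10.8 ± 1.2 to 15.9 ± 0.7 CPM (log2 fold change 0.55, adjusted p = 0.00106), followed by Noc3l (0.33) and Gnl2 (0.32), a nucleolar GTPase. Of 12 genes for RNA polymerase I and the nucleolar scaffold, Taf1b (0.56), Taf1d (0.41) and Ncl (0.19) rose and 0 fell, beside the same shares of all genes, while 6 of the 12 had a positive and 6 a negative log2 fold change. Taf1b and Taf1d encode subunits of the factor that brings RNA polymerase I to ribosomal DNA, and Ncl encodes nucleolin, one of the most abundant nucleolar proteins. Nucleolin mRNA was at 498 ± 14 CPM (SD, n = 4) in WT, 504 ± 16 CPM (SD, n = 3) in MFN2 mice 41 to 43 and 571 ± 28 CPM (SD, n = 5) in mice 72 to 76 (adjusted p = 0.0140). Npm1, which encodes nucleophosmin, was at 155 ± 8 CPM in WT and 155 ± 16 CPM (SD, n = 8) in MFN2, with an adjusted p of at least 0.556 in all 4 contrasts.

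Of the 9 factors that put snoRNPs together, none passed the test in any contrast, and the most abundant per length (RPKM), the ATPase gene Ruvbl1, was at a log2 fold change of 0.05 in mice 72 to 76 against WT (adjusted p = 0.717). Of 6 tested genes of Cajal bodies and telomerase, Wrap53, which encodes the protein that brings box H/ACA RNAs to Cajal bodies, fell (-0.47, from 10.8 ± 0.8 to 7.82 ± 1.53 CPM, adjusted p = 0.0229). Without library 73 its log2 fold change was -0.44, with an edgeR adjusted p of 0.0501. Of 12 snoRNA host genes that make no protein, Snhg14, the long transcript of the imprinted Snord115 and Snord116 region, rose (0.72, from 158 ± 26 to 261 ± 27 CPM, adjusted p = 0.00189), and Gas5 fell (-0.43, adjusted p = 0.0107). In MFN2 mice 41 to 43 against WT and in all 8 MFN2 mice against WT, 0 genes of these lists passed, with or without libraries 43 and 73. Between the runs of MFN2 mice, Nol10 (0.40, adjusted p = 0.0354) and Rrp1b (0.42, adjusted p = 0.0487) were higher in mice 72 to 76, and Snu13 was the other gene of these pathway lists past the threshold. The microglia gene Cx3cr1 was lower in mice 72 to 76 in the same contrast (-0.72, edgeR adjusted p = 0.0496). Without library 43, 2 of 5 astrocyte and 2 of 4 microglia genes were lower there. The counts were 2 and 1 without libraries 43 and 73, and 0 for both lists without library 73 alone. Without library 73, Nol10 and Rrp1b were no longer past the threshold (adjusted p = 0.0853 and 0.113), at log2 fold changes of 0.39 and 0.45. Without libraries 43 and 73, Nol10, Rrp1b and Snu13 were past it (0.38, 0.38 and -0.49, with edgeR adjusted p of 0.0152, 0.0345 and 0.00424). Without library 43 alone, 2375 of all genes were past the threshold in this contrast, against 342 (2.19%) with it. The processome then had 4 calls upwards and 1 downwards, and large-subunit assembly 6 upwards. RNA polymerase I and the scaffold had 1 downwards, and the snoRNA host genes 1 in each direction (Snhg14 and Gas5). Without library 73 as well, large-subunit assembly had 5 upwards and the other counts were the same. More genes were called over all in that fit than in the main fit, and nothing particular to the lists is read from these counts. In the contrast of mice 72 to 76 with WT, 4 of 5 astrocyte and 4 of 4 microglia genes were also lower, led by Gfap (-1.08, adjusted p = 0.0213) and Tmem119 (-0.76, adjusted p = 0.00570). Without library 73 the counts were 3 of 5 and 2 of 4. Genes of other cell types moved as well. Of 3 endothelial genes, Cldn5 fell (log2 fold change -0.82, adjusted p = 0.00685), while Flt1 (0.64, adjusted p = 0.145) and Pecam1 (-0.03, adjusted p = 0.870) did not pass, and their summed level was 102.4 ± 8.7 CPM (SD, n = 5) against 89.8 ± 12.1 CPM in WT. Of 5 neuronal genes, Snap25 fell (-0.18, adjusted p = 0.0414) and Syt1 rose (0.47, adjusted p = 0.0327). Nrgn, 1 of 7 tested forebrain genes, rose (0.57, adjusted p = 0.00548), as did Alas2, 1 of 5 blood genes (1.18, adjusted p = 0.0479). No gene of the lists for motor neurons, oligodendrocytes, meninges and fibroblasts, skeletal muscle or caudal Hox genes passed the test. The part of all these genes in the changes of the nucleolar genes was not tested.

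**Figure D4:**
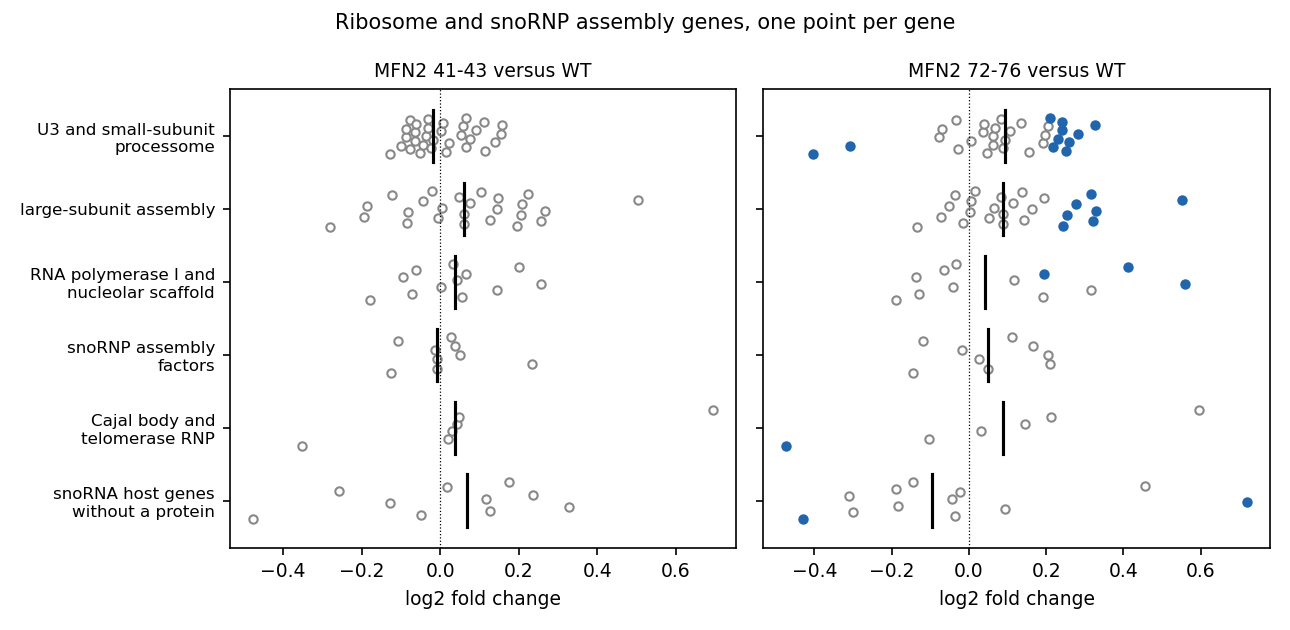
Log2 fold changes of the genes in 6 pathway lists, with 1 point per gene, for MFN2 mice 41 to 43 (left) and 72 to 76 (right) against the same WT mice; filled points are past an FDR of 0.05 in edgeR and the black lines are list medians. No gene of the lists is past the threshold on the left, where 0.00658% of all genes are. On the right, where 11.1% of all genes rose and 12.7% fell, 9 of 31 processome genes rose and 2 fell, 7 of 25 large-subunit genes rose, and 0 of 9 assembly factors passed.

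Across the 12 libraries, the tested genes whose log2 CPM followed Nop58 most closely were Rab27b (Pearson r = 0.954), Rims2 (0.948), Mgat4c (0.945), Ylpm1 (0.936) and Usp24 (0.934). These are descriptions of likeness over libraries that share tissue composition, genotype and run, and the median r over all genes was 0.00. Without library 43 the closest were Cwc22 (0.958), Ufd1, Zfp711, Rab27b and Taok3, so that of the first 5 Rab27b alone stayed. Rab27b and Rims2 are genes of vesicle release in neurons, and Cwc22 is a splicing factor gene. Of the snoRNP genes, Nolc1 was closest to Nop58 over the 12 libraries (r = 0.685), while without library 43 Nop56 was closer than Nolc1 (0.684). Ncl reached 0.730 over the 12 libraries. Nop56 was at 0.380 over 12 libraries and 0.704 without library 43, Dkc1 was at 0.373, Gar1 at 0.08 and Nhp2 at -0.13 (-0.355 without library 43). Fbl and Snu13 ran against Nop58, at -0.539 and -0.383. Within the 8 MFN2 libraries alone, r with Nop58 was -0.089 for Fbl, -0.357 for Snu13, 0.475 for Nop56, 0.609 for Nolc1 and 0.375 for Gar1. Without library 43, the remaining 7 MFN2 libraries gave 0.799 for Nop56, -0.228 for Fbl and -0.487 for Snu13, so that these values depended on that library. Among the others, Nop56 ran against Snu13 (-0.850), Nhp2 (-0.781) and Fbl (-0.774), and Fbl ran with Snu13 (0.754) and Nhp2 (0.738).

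Some counts are of uncertain origin because genes overlap or have near-identical copies. On the opposite strand, 5 exon bases of Nop56 are shared with Idh3b, 45 of Dkc1 with Mpp1 and 44 of Nhp2 with Rmnd5b, and the strand setting of the counting is not given. Of these neighbours, Mpp1 rose in MFN2 mice 72 to 76 against WT (log2 fold change 0.26, adjusted p = 0.0228), while Idh3b and Rmnd5b did not pass the test. Nop56 has the processed pseudogenes Gm9432 and Gm27219 and Snu13 has 6 such copies, none above 0.663 CPM in any library. Fbl has the pseudogene Gm5812 (96.9% identity over 984 bases, at most 1.34 CPM) beside Tulp4. Gm5812 also fell in MFN2 mice 72 to 76 against WT (log2 fold change -1.49, edgeR adjusted p = 0.0175). Its part in the values of Fbl was not tested. No copy of at least 200 bases and 95% identity was found for Nop58, Dkc1, Nhp2, Nop10, Gar1 or Nolc1.

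RefSeq promoters of GRCm38.p6, from 250 bases before to 50 bases after the start, were at hand for 7 of the 8 members, all but Fbl. The E-box CACGTG, searched on both strands, was in 0 of the 7 and in 7.15% of 32851 promoters. The ETS core CCGGAAG was in 3 (Nhp2, Gar1 and Nolc1) against 8.86% of all, the GC box GGGCGG in 4 (Nop58, Nop56, Nhp2 and Nolc1) against 35.7%, and TATAAA in 1 (Dkc1) against 13.6%. These matches describe the letters in the window and are not evidence of binding.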

How the data were processed

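Bulk RNA sequencing of lumbar spinal cord was analysed for 8 MFN2 and 4 WT mice, grouped by the genotype in the sample labels, with 1 library per mouse. The authors trimmed paired-end reads of 75 bases, aligned them with STAR to GRCm38 and deposited unnormalized counts, whole numbers for each Ensembl gene. Which tool counted the reads, and with which strand setting, is not given in the sources used here, and the 2 sources name different SMARTer kits. Of 49548 identifiers, 49289 matched GENCODE M21, the source of positions and exon lengths.

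TMM scaling was applied to the counts, and edgeR 4.0.16 (R 4.3.3) was run with the quasi-likelihood F test in its legacy form with the robust option, two-sided, on genes above 1 CPM in at least 3 libraries of each fit. Benjamini-Hochberg adjustment ran over all genes tested, at an FDR of 0.05. Standard errors were derived from the F statistic, and log2 CPM used a prior count of 2. RPKM was computed from CPM and exon length. The scripts were tested on simulated data with 200 changed genes. Copies were searched with BLAST 2.17.0 at 95% identity over 200 bases or more.

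The members, lists and tests were chosen with earlier results of these data known. The rule for named genes takes the 8 members, Snu13, Fbll1, Ncl and Npm1, up to 3 genes of each list past the threshold per direction (else its most abundant gene), the 5 genes most like Nop58 with and without library 43, and snoRNA genes inside members. Other genes named as neighbours, copies or partners were added after their values were seen. Alternatives were other filters and scalings, DESeq2 1.42.0, limma 3.58.1 (voom), the newer edgeR test, 1 fit of 3 groups, a covariate for the run of library numbers, and the removal of each library in turn. The principal transcript length (for levels and for the difference between the boxes), the threshold of Nop58 under other scalings the joint removal of libraries 43 and 73, and the pathway and glial lists without 1 or both of these, were added after the data were seen. No pair of libraries in a group had matching counts. The result of 1 marker list is not reported here.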

Additional observations from a re-analysis of the deposited data

Results flagged for a closer look

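In the 4 WT mice, Nop58 of mouse 47 (31.3 CPM) was set apart from the other 3 (33.3 to 33.6 CPM), with a gap of 0.862 of the group's range. In MFN2 mice 72 to 76, Nop56 of mouse 76 (81.8 CPM) lay below the other 4 (90.7 to 92.8 CPM), with a gap of 0.811 of the range. In the 8 MFN2 mice, Nhp2 of mouse 43 (17.7 CPM) lay above the other 7, with a gap of 0.537 of the range, and this is the library with the forebrain genes. A gap above Dixon's critical value at 95% flagged these 3 values among 30 groups examined, where chance alone gives about 1.5. Snu13 was flagged because its effect against WT differed between the 2 sets of MFN2 mice, by -0.54 on the log2 scale (edgeR adjusted p = 0.0112), with all 3 mice 41 to 43 above and all 5 mice 72 to 76 below every WT mouse. The share of all genes with such a pattern was not counted.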

How the results depend on the processing

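Of 261 fits of the members under other settings, those of Nop58 against WT left aside, 231 kept direction and side of the threshold, 3 lost a call, 10 gained one and 17 changed sign, all of the last at changes that were not called. The fits of Nop58 between the runs, elsewhere given as a description, are among the 261. For all 8 MFN2 mice against WT, the 0 genes of edgeR became 200 with DESeq2 and 4 without libraries 43 and 73, and 0 to 19 with each library left out (19 without library 43, 7 without library 41), while 0 of the 7 members were called throughout. Nop56 turned to -0.22 and Nhp2 to 0.21 with the run of numbers as a covariate, where Fbl went from -0.25 to -0.017. Nhp2 turned to 0.0052 with library size alone. For MFN2 mice 41 to 43 against WT, the 1 gene became 0 without a filter, with voom and in the fit of 3 groups, 5 with DESeq2, and 0 to 2 with a library left out, with 0 members called in each. Fbl, near 0, turned to -0.014 without a filter, -0.00098 with median-ratio scaling, -0.0018 with DESeq2, -0.0069 with voom, -0.00013 with the newer edgeR test, -0.017 in the fit of 3 groups and -0.087 without libraries 43 and 73, where Nolc1 turned to -0.0065.

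For MFN2 mice 72 to 76 against WT, 3746 genes became 1224 in the fit of 3 groups, which also called 1 member in place of 3, losing Nop56 (adjusted p = 0.0660) and Nolc1 (adjusted p = 0.104). Leaving out a library gave 2350 to 4517 genes (the fewest without WT library 45) and 2 to 3 members. With library size alone, 2822 genes were higher and 1345 lower, in place of 1746 and 2000, and Gar1 turned to 0.018. Between the runs of MFN2 mice, 342 genes became 1795 with DESeq2, 1339 in the fit of 3 groups and 1831 without libraries 43 and 73, and 31 to 2375 with a library left out. The 0 members called became 1 without a filter, with library size alone and with voom, 2 in the fit of 3 groups and without libraries 43 and 73, and 3 with DESeq2, with 0 to 1 when a library was left out (Nop56, without 42 or 43). Dkc1, Nop10 and Gar1 turned to 0.024, 0.049 and 0.050 with library size alone, and Nop10 and Gar1 to 0.058 and 0.15 without libraries 43 and 73. There 281 genes were higher and 105 lower with library size alone, in place of 157 and 185.

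With a library left out, the members whose sign turned ran as follows, and none of those tested was called. Over all MFN2 mice against WT, Nhp2 ran from -0.17 to 0.064 and Gar1 from -0.12 to 0.0046. In mice 41 to 43 against WT, Fbl ran from -0.087 to 0.073, Dkc1 from -0.034 to 0.14, Gar1 from -0.15 to 0.035 and Nolc1 from -0.0065 to 0.11. In mice 72 to 76 against WT, Gar1 ran from -0.12 to 0.013. Between the runs, Nop58 (a description, without a test) ran from -0.029 to 0.11, Dkc1 from -0.098 to 0.064, Nop10 from -0.081 to 0.035 and Gar1 from -0.10 to 0.10.

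The box C/D minus box H/ACA difference from WT, -0.024 in mice 41 to 43 and 0.156 in mice 72 to 76, became -0.16 and 0.0089 without Nop58, and 0.059 in mice 72 to 76 with Snu13 added. With a library left out it ran from -0.092 to 0.023 and from 0.115 to 0.194. The causes of these shifts were not tested. No paired analysis was made because the sample labels used here give no litter or pair. Gar1, at about 5 CPM, rests on the fewest counts of the members, from 83 to 149 per library.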
